A study of Mus musculus with 10 samples.

Results

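The genes described here are 33 growth factor ligands and receptor tyrosine kinases, taken by name from the fibroblast growth factor (FGF), platelet-derived growth factor (PDGF), epidermal growth factor (EGF), hepatocyte growth factor (HGF), vascular endothelial growth factor (VEGF) and neurotrophin families and their neighbours. They are 25 ligands and 8 receptors out of 32899 genes with at least 1 transcript in the deposited table, and they were listed by name and family, not by a threshold on a measured value. The cells were preadipocytes, the precursors of fat cells, taken from inguinal subcutaneous adipose tissue (iSAT) of male mice with the genotype WT C57 BL6. Their RNA was sequenced in 10 libraries, 5 from cells with DMSO alone as vehicle control and 5 from cells with bisphenol S (BPS, an analogue of bisphenol A) at 2.5 µM in DMSO. By its title the study concerns reactive oxygen species in the adipogenic effect of bisphenols. The labels give neither the exposure time nor the source of the replicates (animals or dishes), so the p-values below measure the spread between these libraries, which may be technical.

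A growth factor of these families binds the outer part of its receptor, pairs receptor chains and switches on the tyrosine kinase inside the cell, which passes the signal to the RAS-ERK and PI3K-AKT routes. In fat tissue, PDGF receptor alpha marks the progenitor cells, and FGF1, FGF2 and FGF10 are known as signals that act on preadipocyte growth and differentiation. Several of the ligands are made as membrane-bound or matrix-bound forms, so a transcript level is not a level of active factor.

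Of the 33 genes, 28 had enough counts to be tested and 5 did not. Among the tested ones, 4 ligands were higher under BPS, which were Pdgfc, Pdgfa, Bdnf and Nrg1. The changes were small, between 1.09-fold for Bdnf and 1.35-fold for Nrg1. None of the 6 tested receptors passed the threshold. The test was edgeR's quasi-likelihood test on counts summed per gene, with p-values adjusted by Benjamini and Hochberg across the 14593 tested genes and a threshold of 0.05. By that test 4.87% of all tested genes were called, 3.06% higher and 1.82% lower, against 14.3% of the tested members. This difference in share was not tested, since the names were picked with results of these data known. Below, levels are CPM (assigned counts scaled to a common library total) on library sizes scaled by the trimmed mean of M-values (TMM), with SD over 5 libraries, and a log2 change is the log2 fold change of BPS against DMSO, given with its standard error (SE).

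**Figure D1:**
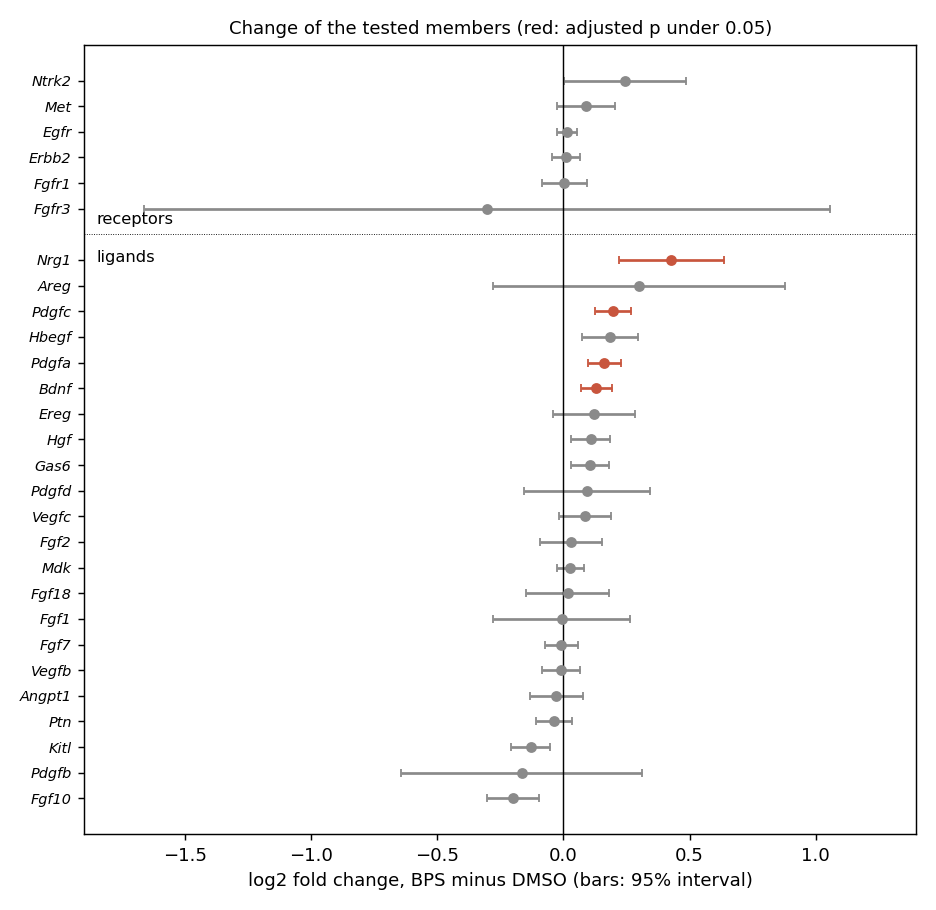
Log2 fold change of BPS against DMSO (x axis) for the 28 tested members, with ligands below the dotted line and receptors above it. Points are estimates, bars span 1.96 SE to each side, and red marks the 4 ligands with an adjusted p under 0.05. By edgeR's F test these bars are narrower than the interval named on the axis. The bar of Ntrk2 lies above 0 although its unadjusted p was 0.0721 by edgeR. Red points lie between 0.13 and 0.43, and the widest bar is that of Fgfr3, which had 0 to 41 counts per library.

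Upstream sequence is shown for Pdgfc, Bdnf and Fgf10, of which all BPS libraries lay on one side of all DMSO libraries. Pdgfa separated too, but both of its windows overlap annotated exons and are not shown. The RefSeq table of assembly GRCm38.p6 gave windows for 24 of the 33 genes, and the 250 bases before an annotated start are printed 5′ to 3′ on the gene's strand. Capitals mark matches, on either strand, to any of 6 motifs: GCGTG (the core bound by the aryl hydrocarbon receptor, AHR), TGANTCA (AP-1), TGACGTCA (the cAMP response element), GGGCGG (the GC box of SP1), TATAAA (the TATA box) and the CArG box bound by serum response factor.
Pdgfc, chr3:81036166-81036415, plus strand: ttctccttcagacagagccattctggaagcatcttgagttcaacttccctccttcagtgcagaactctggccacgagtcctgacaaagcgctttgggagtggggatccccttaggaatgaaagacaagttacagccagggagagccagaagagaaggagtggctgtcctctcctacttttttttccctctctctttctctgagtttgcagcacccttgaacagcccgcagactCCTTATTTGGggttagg
Fgf10, chr13:118714449-118714698, plus strand: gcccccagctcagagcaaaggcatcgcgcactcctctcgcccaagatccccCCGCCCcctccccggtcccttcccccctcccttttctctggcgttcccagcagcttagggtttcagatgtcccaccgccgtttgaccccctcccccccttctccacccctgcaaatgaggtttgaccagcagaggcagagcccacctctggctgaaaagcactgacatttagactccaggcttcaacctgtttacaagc
Bdnf, chr2:109692186-109692435, plus strand: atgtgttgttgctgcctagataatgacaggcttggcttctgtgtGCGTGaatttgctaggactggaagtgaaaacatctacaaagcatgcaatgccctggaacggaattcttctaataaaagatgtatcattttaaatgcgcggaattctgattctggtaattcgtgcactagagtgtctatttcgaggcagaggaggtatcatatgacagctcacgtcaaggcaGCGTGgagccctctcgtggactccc
No annotated exon of GENCODE M21 lies in these 3 windows. The Pdgfc window lies outside any annotated transcript, the Bdnf window lies in an intron of longer Bdnf transcripts, and the Fgf10 window lies in introns of Fgf10 and of Gm16263, an antisense gene. The Pdgfc window belongs to the transcript that held 69.7% of the gene's counts, the Fgf10 window to the transcript that held all of the gene's counts, and the Bdnf window to a transcript that held 10.4% of its gene's counts.

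The Pdgfc window held 1 match, a CArG box of the letters CCTTATTTGG from 17 to 8 bases before the start. A CArG box was found in 1.5% of all 32851 upstream windows of the same length. The Fgf10 window held 1 GC box, a motif found in 32.7% of windows. The printed Bdnf window held 2 AHR cores, at 206 to 202 and 25 to 21 bases before the start. At least 1 AHR core was found in 28.2% of windows, and the share with 2 was not counted. Among the other Bdnf windows, which are not printed, that at chr2:109694159-109694408 held 1 AHR core and the rest held none. The transcript that held most of the Bdnf counts was matched to none of the Bdnf windows. A match is a description of the letters and does not show that a factor binds there.

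Within the PDGF family, Pdgfc and Pdgfa, whose products bind PDGF receptor alpha, were higher under BPS. Pdgfc, which encodes the PDGF-C chain, stood at 24.1, 24.2, 25.2, 26.1 and 24.5 CPM in DMSO replicates 1 to 5 and at 30.1, 28.5, 26.8, 29.3 and 27.5 CPM in BPS replicates 1 to 5. All 5 BPS libraries lay above all 5 DMSO libraries. The means were 24.8 ± 0.816 and 28.4 ± 1.33 CPM, a log2 change of 0.20 with SE 0.04 (edgeR adjusted p = 0.0119), or 1.146-fold.

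Pdgfa, which encodes the PDGF-A chain, stood at 18.9, 19.2, 20.2, 19.2 and 18.7 CPM in DMSO replicates 1 to 5 and at 22.2, 21.0, 20.8, 22.2 and 21.4 CPM in BPS replicates 1 to 5. Its groups did not overlap either. The means were 19.2 ± 0.563 and 21.5 ± 0.659 CPM, a log2 change of 0.16 with SE 0.03 (edgeR adjusted p = 0.017), or 1.12-fold. Both calls held when any single library was left out. Groups that do not overlap were found in 6.90% of all tested genes and in 4 of the 28 tested members, which were Pdgfc, Pdgfa, Bdnf and Fgf10.

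The other PDGF ligands did not pass the test. Pdgfd, whose product acts mainly on PDGF receptor beta, ranged from 7.19 to 9.87 CPM in DMSO and from 7.06 to 11.8 CPM in BPS, so the BPS libraries spread around the DMSO libraries (log2 change 0.09 with SE 0.13, edgeR adjusted p = 0.771). Pdgfb had only 14 to 33 counts per library and a log2 change of -0.17 with SE 0.24 (edgeR adjusted p = 0.784), which ran from -0.322 to -0.042 with single libraries omitted. The receptors of the family did not pass edgeR's test. Pdgfra stood at 904 ± 14.4 CPM with DMSO and 863 ± 22.8 CPM with BPS, a log2 fold change of -0.07 (SE 0.02) that missed the threshold (edgeR adjusted p = 0.0774). DESeq2 called Pdgfra lower (log2 change -0.07, adjusted p = 0.0156 in its Wald test). Pdgfrb, the beta receptor, stood at 646 ± 5.72 and 637 ± 8.13 CPM (edgeR adjusted p = 0.446).

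**Figure D2:**
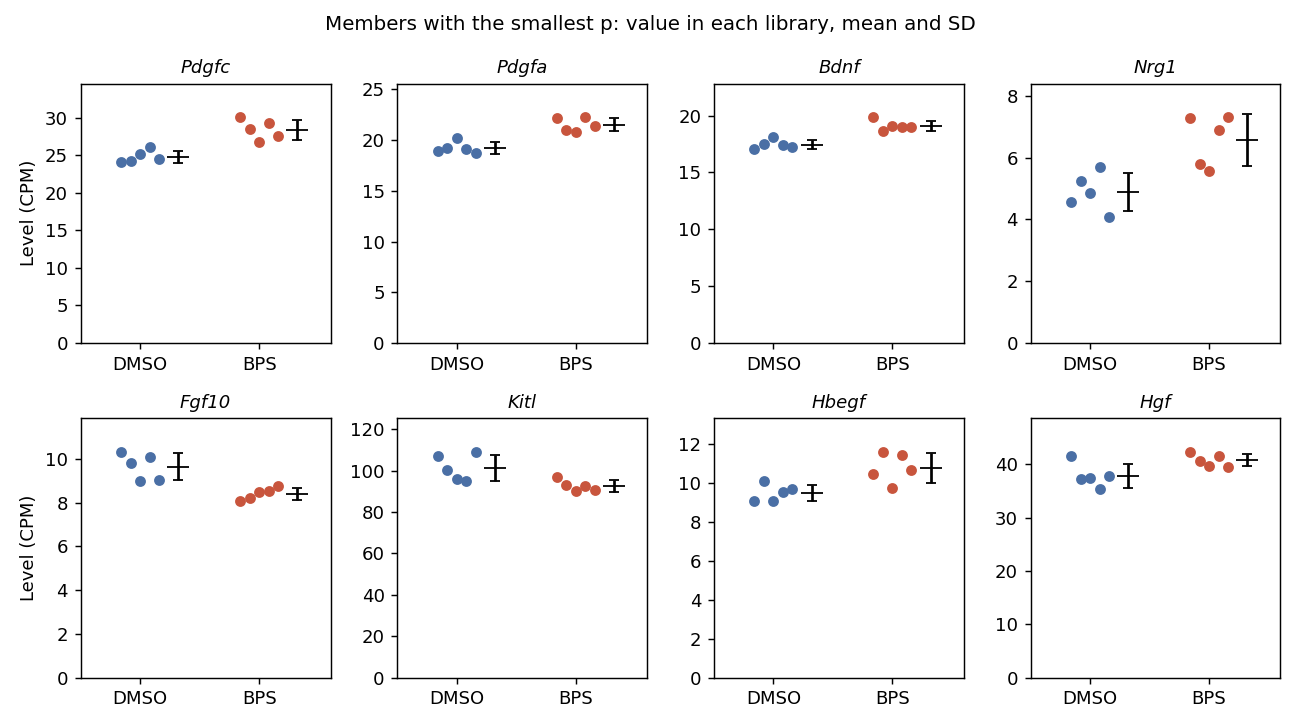
Level in CPM (y axis, from 0) of the 8 members with the smallest p in each of the 5 DMSO and 5 BPS libraries, with mean and SD beside the points. The libraries of Pdgfc, Pdgfa, Bdnf and Fgf10 separate by group, while those of Nrg1, Kitl, Hbegf and Hgf overlap.

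Nrg1 had the largest fold change among the called members. It encodes neuregulin 1, an EGF-like ligand of the receptors ERBB3 and ERBB4. Nrg1 stood at 4.57, 5.24, 4.84, 5.71 and 4.08 CPM in DMSO replicates 1 to 5 and at 7.30, 5.80, 5.58, 6.91 and 7.31 CPM in BPS replicates 1 to 5. The groups overlapped at BPS replicate 3, which lay below DMSO replicate 4. The means were 4.89 ± 0.626 and 6.58 ± 0.83 CPM, a log2 change of 0.43 with SE 0.11 (edgeR adjusted p = 0.0433).

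This call stood close to the threshold. It was lost in 7 of 10 fits with a single library omitted, namely without DMSO replicates 1, 2, 3 or 5 or BPS replicates 1, 4 or 5, with adjusted p of 0.0343 to 0.0933 by edgeR over the 10 fits. The log2 fold change in these fits ran from 0.37 to 0.49. The call was also lost with libraries scaled by size alone (edgeR adjusted p = 0.0501) and without a filter on low counts (edgeR adjusted p = 0.0519).

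The counts of Nrg1 were spread over several RefSeq transcripts. The curated transcript NM_178591.2, which encodes 700 amino acids, averaged 4.25 CPM with DMSO and 4.69 with BPS. The predicted transcript XM_006509078.3 averaged 0.0989 CPM with DMSO and 0.931 with BPS. This difference of 0.832 CPM was larger than that of any other single transcript shown. Its estimated counts were 16.1, 0, 2.2, 0 and 0 in DMSO replicates 1 to 5 and 60.5, 19.2, 32.3, 32.4 and 28.8 in BPS replicates 1 to 5. Tested alone among 37588 transcripts, XM_006509078.3 did not pass (unadjusted p = 0.029, edgeR adjusted p = 0.625), and NM_178591.2 had a log2 fold change of 0.14 (SE 0.11). The program that made the counts divides reads among transcripts that share sequence, and the table carries no measure of that uncertainty.

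**Figure D3:**
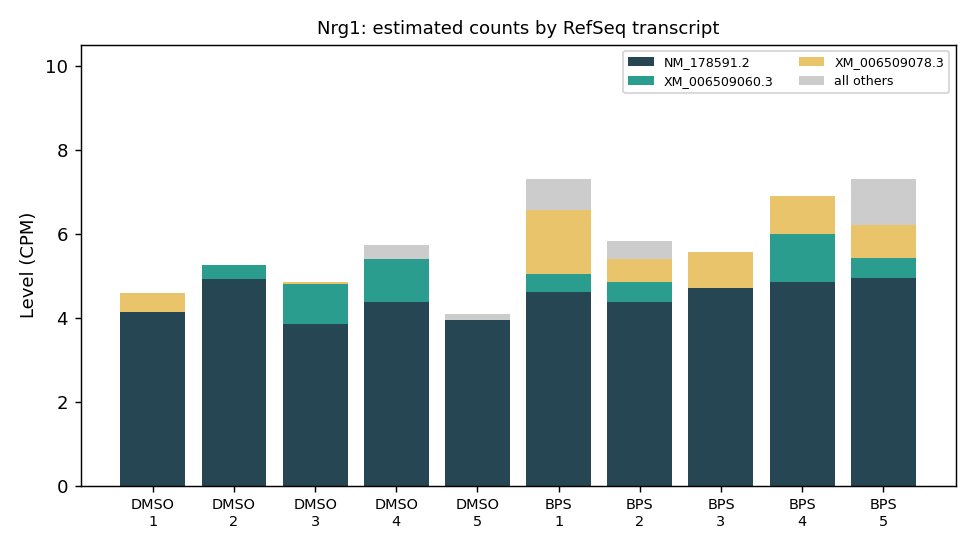
Level of Nrg1 in CPM (y axis) in each library, stacked by RefSeq transcript, with transcripts that held under 5% of the counts pooled as all others. NM_178591.2 averages 4.25 CPM with DMSO and 4.69 with BPS, and XM_006509078.3 averages 0.0989 and 0.931 CPM.

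Receptors for neuregulin were near or at 0. Erbb4 had 0 counts in all 10 libraries, where 0 in a single library taken alone allows an expected count of up to 3. Erbb3 had 2 to 10 counts per library and was not tested. Erbb2, the partner receptor that binds no ligand of its own, was present at 34.7 ± 0.321 CPM with DMSO and 35.0 ± 1.33 CPM with BPS (log2 change 0.01 with SE 0.03, edgeR adjusted p = 0.902).

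The other EGF family ligands did not pass the test. Hbegf, a membrane-anchored EGF receptor ligand, stood at 9.06, 10.1, 9.05, 9.56 and 9.66 CPM in DMSO replicates 1 to 5 and at 10.46, 11.6, 9.73, 11.4 and 10.7 CPM in BPS replicates 1 to 5. All BPS values were above the DMSO mean, but BPS replicate 3 lay among the DMSO libraries (log2 change 0.18 with SE 0.06, edgeR adjusted p = 0.0936). Ereg, which encodes epiregulin, averaged 8.93 ± 1.11 and 9.70 ± 0.678 CPM (log2 change 0.12 with SE 0.08, edgeR adjusted p = 0.495, and 0.187 without DMSO replicate 1). Areg, which encodes amphiregulin, had 5 to 19 counts per library and an interval of the log2 change from -0.28 to 0.88, wide enough to hold the change of every called member. Tgfa had 2 to 7 counts per library and was not tested.

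Bdnf, the neurotrophin that activates the receptor encoded by Ntrk2, was higher under BPS. It stood at 17.0, 17.5, 18.1, 17.4 and 17.3 CPM in DMSO replicates 1 to 5 and at 19.8, 18.6, 19.1, 19.0 and 19.0 CPM in BPS replicates 1 to 5. The lowest BPS library, replicate 2, was above the highest DMSO library, replicate 3. The log2 change was 0.13 (SE 0.03, edgeR adjusted p = 0.0351). The direction held in all 10 fits with a single library omitted, but 8 of them lost the call, namely those without DMSO replicates 1, 2, 4 or 5 or BPS replicates 1, 3, 4 or 5, with adjusted p of 0.0406 to 0.0811 by edgeR over the 10 fits. It was also lost with libraries scaled by size alone (edgeR adjusted p = 0.0649), without a filter (edgeR adjusted p = 0.1) and with DESeq2 (adjusted p = 0.0657 in its Wald test). Of the Bdnf counts, 83.3 ± 11.8% in DMSO and 82.8 ± 4.37% in BPS were assigned to NM_001048142.1, and 8.07 ± 4.44% and 13.0 ± 4.42% to NM_001048141.1, whose upstream window is printed above. Both transcripts encode the same length of 249 amino acids and differ in their start.

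Ntrk2 ranged from 4.11 to 6.40 CPM in DMSO and from 5.57 to 7.67 CPM in BPS, and the groups overlapped (log2 change 0.24 with SE 0.12, edgeR adjusted p = 0.321). With transcripts matched by exact accession version the log2 change was 0.682 (edgeR adjusted p = 0.483). Its transcript NM_008745.3 encodes 476 amino acids, a form of the receptor known to lack the kinase domain. That transcript took from 18.1% to 69.8% of the Ntrk2 counts in DMSO libraries and from 40.3% to 87.3% in BPS libraries, and these ranges overlapped. Gdnf, a ligand that signals through RET with its co-receptor GFRA1, had 3 to 13 counts per library and was not tested. Ret itself was higher under BPS, at 7.66 ± 0.467 CPM with DMSO and 9.58 ± 0.955 CPM with BPS without overlap (log2 change 0.32 with SE 0.07, edgeR adjusted p = 0.0292). Gfra1 stood at 27.9 ± 1.27 and 29.3 ± 0.647 CPM (edgeR adjusted p = 0.305).

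Among the FGF ligands, Fgf10 came closest to a call and in the lower direction. FGF10 acts on the epithelial-type FGFR2 and is known as a factor needed for white fat development. Fgf10 stood at 10.3, 9.80, 9.001, 10.1 and 9.05 CPM in DMSO replicates 1 to 5 and at 8.08, 8.22, 8.48, 8.54 and 8.75 CPM in BPS replicates 1 to 5. Every BPS library lay below every DMSO library. The log2 fold change of -0.20 (SE 0.05) missed the threshold (edgeR adjusted p = 0.0536), and passed it when DMSO replicate 3 was left out (edgeR adjusted p = 0.0482), when libraries were scaled by size alone (adjusted p = 0.0422) and with a CPM filter (adjusted p = 0.0471).

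The other tested FGF ligands did not pass the test, and the intervals of their changes included 0. Fgf7, the keratinocyte growth factor, stood at 107 ± 1.74 CPM with DMSO and 106 ± 5.89 CPM with BPS, with an interval of the log2 fold change (1.96 SE to each side) from -0.07 to 0.06. Fgf2 stood at 16.3 ± 1.03 and 16.6 ± 1.403 CPM (interval -0.09 to 0.15), Fgf1 at 6.54 ± 1.43 and 6.51 ± 0.823 CPM (interval -0.28 to 0.26) and Fgf18 at 4.61 ± 0.39 and 4.66 ± 0.435 CPM (interval -0.15 to 0.18). Fgf9 had 1 to 5 counts in DMSO libraries and 4 to 7 in BPS libraries, all BPS libraries lay above the DMSO mean in CPM, and the gene was not tested.

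Fgfr1, a receptor for FGF1 and FGF2, stood at 178 ± 13.8 CPM with DMSO and 178 ± 5.49 CPM with BPS (log2 change 0.00 with SE 0.05, edgeR adjusted p = 0.978). Nearly all of its counts lay in 1 transcript, NM_001079909.2. Fgfr3 had 32, 37, 38, 0 and 31 counts in DMSO replicates 1 to 5 and 41, 31, 22, 15 and 0 in BPS replicates 1 to 5. Fgfr2 had 0, 0, 0, 43 and 8 counts in the same DMSO libraries and 0, 0, 1, 17 and 14 in the BPS libraries, and was not tested. Fgfrl1, a relative without a kinase domain, averaged 29.6 and 29.8 CPM (edgeR adjusted p = 0.904). The libraries with Fgfr3 at 0 were among those with Fgfr2 above 0. Receptors of similar sequence can share reads, which the counting divides by estimation, and its part in these values was not tested.

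Kitl and Hgf are ligands made by stromal cells that can act on other cells. Kitl, which encodes stem cell factor, stood at 107, 100.3, 95.7, 95.1 and 109 CPM in DMSO replicates 1 to 5 and at 97.1, 93.0, 89.9, 92.3 and 90.6 CPM in BPS replicates 1 to 5. All BPS values were below the DMSO mean, but BPS replicate 1 lay above DMSO replicates 3 and 4 (log2 change -0.13 with SE 0.04, edgeR adjusted p = 0.0855). The DESeq2 Wald test called it (adjusted p = 0.0357). Kit, its receptor, had 13 to 28 counts per library.

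Hgf stood at 41.4, 37.2, 37.4, 35.3 and 37.7 CPM in DMSO replicates 1 to 5 and at 42.2, 40.6, 39.7, 41.6 and 39.6 CPM in BPS replicates 1 to 5. DMSO replicate 1 was as high as the BPS libraries and the other DMSO libraries were below them (log2 change 0.11 with SE 0.04, edgeR adjusted p = 0.15). Without DMSO replicate 1 the call was made, with a log2 fold change of 0.14 and an adjusted p of 0.0311 by edgeR. Met, the HGF receptor, stood at 8.25 ± 0.337 CPM with DMSO and 8.77 ± 0.659 CPM with BPS (log2 change 0.09 with SE 0.06, edgeR adjusted p = 0.479, and 0.041 without BPS replicate 1).

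Gas6, a ligand of the TAM receptors AXL, MERTK and TYRO3, averaged 113 ± 5.59 and 122 ± 5.52 CPM (log2 change 0.10 with SE 0.04, edgeR adjusted p = 0.153). Its relative Pros1, which encodes protein S, fell from 289 ± 6.46 to 271 ± 4.66 CPM without overlap (log2 change -0.10 with SE 0.02, edgeR adjusted p = 0.0154). The receptor Axl stood at 850.1 ± 30.7 and 852 ± 24.3 CPM (edgeR adjusted p = 0.966), and Mertk and Tyro3 did not pass (adjusted p 0.35 and 0.507 by edgeR).

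The vascular ligands did not pass the test. Vegfb stood at 24.7 ± 0.555 and 24.6 ± 1.33 CPM (interval of the log2 fold change -0.08 to 0.07), Vegfc at 17.0 ± 1.01 and 18.0 ± 1.07 CPM (interval -0.02 to 0.19) and Angpt1 at 5.34 ± 0.175 and 5.24 ± 0.191 CPM (interval -0.13 to 0.08). Nrp2, a co-receptor for VEGF-C, rose from 18.2 ± 1.10 to 20.6 ± 0.777 CPM (log2 change 0.18 with SE 0.05, edgeR adjusted p = 0.0433). The receptors Kdr, Flt1, Flt4 and Tek and the co-receptor Nrp1 did not pass (adjusted p of 0.436 to 0.997 by edgeR). Ptn and Mdk, which encode the heparin-binding factors pleiotrophin and midkine, stood at 167 ± 6.71 and 95.5 ± 3.59 CPM in DMSO and at 163 ± 8.35 and 97.3 ± 2.48 CPM in BPS, with intervals of -0.11 to 0.03 and -0.03 to 0.08. Their receptors Alk and Ptprz1 had adjusted p of 0.825 and 0.861 by edgeR.

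Egfr, the receptor of epiregulin, amphiregulin and HB-EGF, stood at 337 ± 8.07 CPM with DMSO and 340.4 ± 6.87 CPM with BPS. Its log2 fold change was 0.01 (SE 0.02, edgeR adjusted p = 0.772), with an interval of -0.03 to 0.05. The full-length transcript NM_207655.2 encodes 1210 amino acids, and NM_007912.4 encodes 655, a form known to lack the transmembrane and kinase parts. The short transcript took 11.2 ± 0.877% of the Egfr counts in DMSO and 11.2 ± 0.574% in BPS. Per kb of transcript it made up 30.4 ± 1.83% in DMSO and 30.4 ± 1.22% in BPS, since it is 2943 bases long against 10208 for the full-length transcript. The 2 forms of Vegfb, of 207 and 188 amino acids, took 61.1 ± 5.77% and 38.9 ± 5.77% per kb in DMSO and 63.9 ± 2.43% and 36.1 ± 2.43% in BPS.

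At the level of single transcripts, 51 transcripts of the members were tested and 0 were called by edgeR, whose lowest adjusted p among them was 0.406. By the same threshold 0.335% of all tested transcripts were called. Of the 51, 8 (15.7%) had an unadjusted p under 0.05, against 6.8% of all tested transcripts. The DESeq2 Wald test called 2, NM_019971.2 of Pdgfc (adjusted p = 0.0438) and XM_006504659.3 of Pdgfa (adjusted p = 0.0361). Both transcripts of Pdgfc had positive changes, 0.16 (SE 0.05) for NM_019971.2 and 0.28 (SE 0.10) for XM_017319655.1. The share of NM_019971.2 in the gene's counts was 70.5 ± 2.73% in DMSO and 68.9 ± 1.56% in BPS. Pdgfa was divided among 3 transcripts, and NM_008808.3 held 33.5 ± 2.36% and 33.4 ± 1.92% of its counts.

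Levels of different genes can be compared only per length of transcript. A length was known for at least 80% of the counts of 20 tested members. Among these, Mdk was highest, at 123 ± 4.63 CPM per kb in DMSO. Fgfr1 (46.9 ± 3.65), Gas6 (44.5 ± 2.19), Fgf7 (40.0 ± 0.65) and Egfr (35.9 ± 0.859 CPM per kb) followed, of which Fgfr1 and Gas6 overlapped in their libraries. Vegfb stood at 19.996 ± 0.449, Kitl at 18.0 ± 1.12 and Hgf at 16.4 ± 0.965 CPM per kb, and Kitl and Hgf overlapped. Erbb2 and Vegfc overlapped near 6.93 CPM per kb, and Bdnf, Fgf18 and Hbegf each overlapped with Pdgfd between 3.81 and 5.50 CPM per kb. Fgf10 (2.35 ± 0.147) and Ereg (2.16 ± 0.268 CPM per kb) overlapped, and Angpt1 stood at 1.25 ± 0.041. Areg, Pdgfb and Fgfr3 were the lowest, at 0.221, 0.215 and 0.182 CPM per kb, and overlapped with each other.

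**Figure D4:**
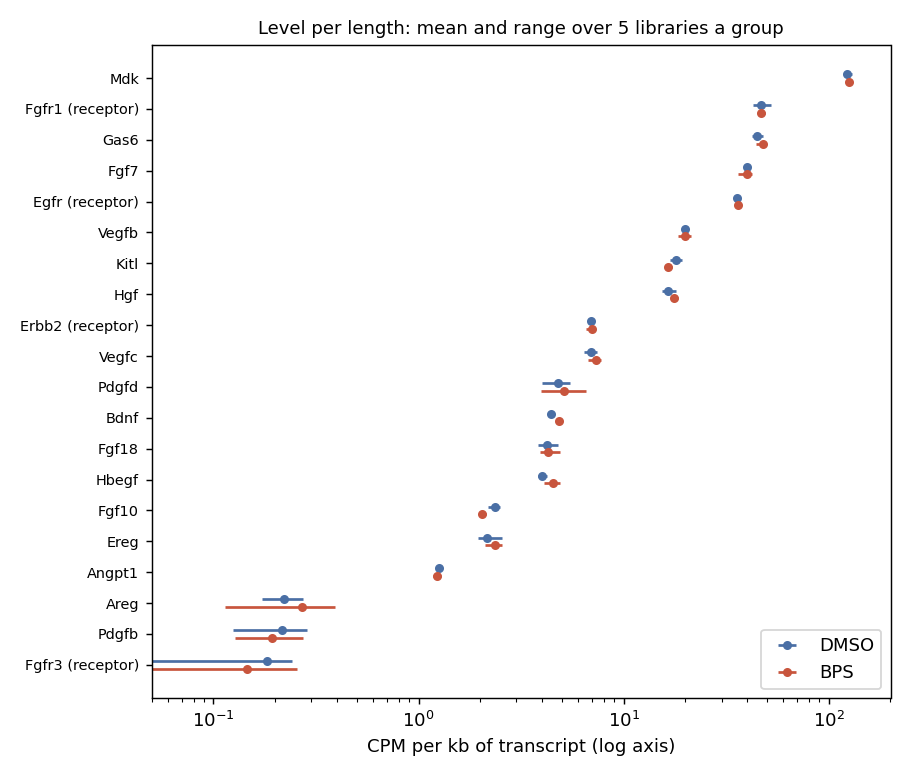
Level per length in CPM per kb of transcript (log x axis) for the 20 tested members with a known length for at least 80% of their counts, as mean and range over 5 DMSO and 5 BPS libraries. Mdk lies at 123 CPM per kb in DMSO and Fgfr3 at 0.182, and the bars of Fgfr3 run off the axis to 0 in both groups.

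The rest of the pathway was read from 4 lists of 131 genes, of which 102 were tested, 5 were higher and 2 were lower. Of 20 tested other ligands, 0 were higher and 1, Pros1, was lower, while 1 and 3 had an unadjusted p under 0.05 in these directions, DESeq2 called 0 and 2 and limma-voom 0 and 1. Of 30 tested other receptors, Ryk, Ret and Nrp2 were higher and 0 were lower, with 1 at an unadjusted p under 0.05, 1 by DESeq2 and 0 by limma-voom in that direction. Ryk, a receptor of WNT ligands without kinase activity, rose from 219 ± 3.14 to 231 ± 1.85 CPM (log2 change 0.08 with SE 0.01, edgeR adjusted p = 0.01).

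Of 30 signal relay genes, which carry the signal from receptors to ERK and AKT or restrain it, all were tested and 1 was higher. This was Errfi1, an inhibitor of the EGF receptor kinase, at 284 ± 9.83 CPM with DMSO and 312 ± 15.5 CPM with BPS (log2 change 0.13 with SE 0.03, edgeR adjusted p = 0.0464). The groups of Errfi1 overlapped, and among the relay genes DESeq2 called 1 higher and limma-voom 0. Of these genes 0 were lower, with 2 at an unadjusted p under 0.05 in that direction and 0 by DESeq2 and by limma-voom. Of 22 tested genes for ligand processing and matrix binding, 1 was higher and 1 lower, both glypicans that hold growth factors at the cell surface. Gpc4 rose from 126 ± 1.70 to 139 ± 3.91 CPM (log2 change 0.15 with SE 0.02, edgeR adjusted p = 0.00208), and Gpc1 fell from 238 ± 3.95 to 223 ± 6.73 CPM (log2 change -0.10 with SE 0.02, edgeR adjusted p = 0.0275).

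The median log2 fold change was 0.06 over the 22 tested member ligands, 0.01 over the 6 tested member receptors, and 0.01 in each of the lists of other ligands, other receptors and relay genes, and 0.02 in the processing list. Over all tested genes it was 0.00. For the member receptors, 0 had an unadjusted p under 0.05 and 0 were called by DESeq2 or limma-voom. For the member ligands 0 were lower by edgeR, with 2 (9.1%) at an unadjusted p under 0.05 in that direction, 1 by DESeq2 and 0 by limma-voom. In the higher direction 7 (31.8%) had an unadjusted p under 0.05, and DESeq2 called 3 and limma-voom 4. These shares were not tested against the background, since the names were picked with results of these data known. Of all tested genes, 10.2% were higher and 8.6% lower at an unadjusted p under 0.05, which is the background of these counts.

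**Figure D5:**
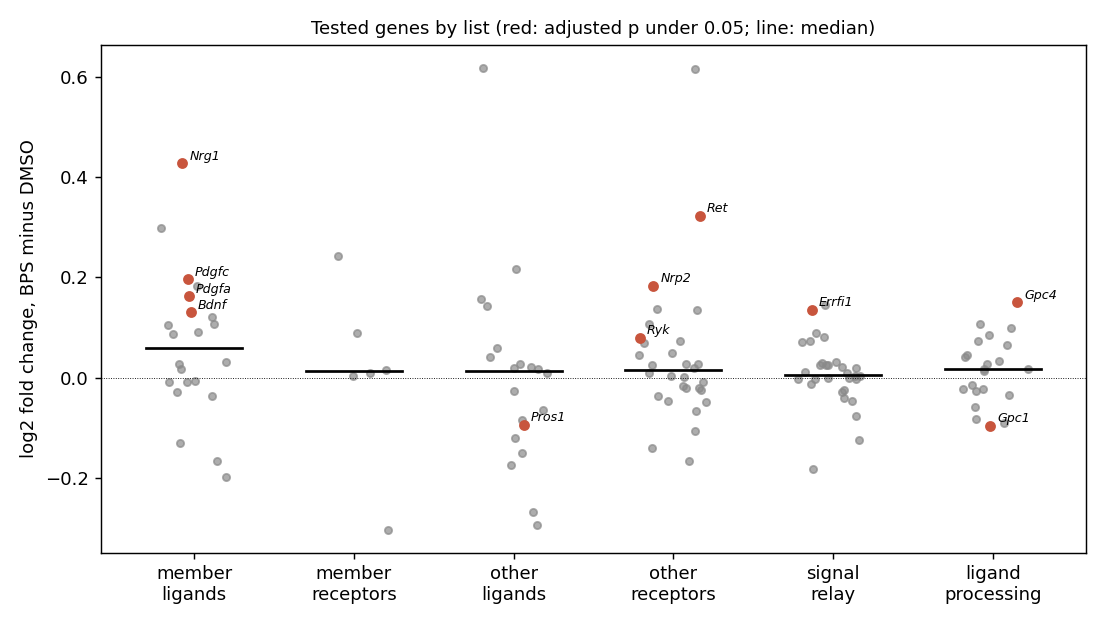
Log2 fold change of BPS against DMSO (y axis) for each tested gene of the 6 lists, with a line at each list's median and red for an adjusted p under 0.05. Medians lie at 0.06 for the member ligands and at 0.01 to 0.02 for the other lists, and the called genes are named.

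Genes that respond to growth factor signalling were read beside these values, and any link to the growth factor genes was not tested. Egr1 and Fos, immediate early genes, were higher under BPS, with log2 fold changes of 1.08 (SE 0.09) and 1.37 (SE 0.17). Dusp6, Spry4, Etv4 and Etv5 had positive log2 fold changes of 0.12, 0.23, 0.16 and 0.05 and Spry2 one of -0.02, and none of these 5 passed (adjusted p of 0.115 to 0.821 by edgeR).

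Total estimated counts ranged from 37920689 to 42717227 per library with overlapping groups (exact two-sided permutation test, p = 0.452). Of the 711 called genes 446 were higher and 265 lower, and with libraries scaled by size alone 334 were higher and 392 lower, a scaling that moved the median of all genes to -0.014. All 9 preadipocyte markers were tested, and their levels summed to between 23802 and 25497 CPM with DMSO and between 23113 and 25916 CPM with BPS, most of it Col1a1 (21825 CPM with DMSO), while Dpp4 and Pi16 averaged 2.45 and 2.02 CPM with DMSO. Among them Cd34 and Thy1 were higher under BPS (log2 fold changes 0.28 and 0.19), Pdgfra and Dpp4 had log2 changes of -0.07 and -0.20 that missed the threshold, and DESeq2 called Pdgfra lower.

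Some markers of other cell types moved with the group. Of 6 mural cell markers 1, Cspg4, was higher (log2 fold change 0.16, edgeR adjusted p = 0.0469). DESeq2 called 1 of the 6 higher and limma-voom 0. The summed level of the 6 was 58.2 to 63.9 CPM with DMSO and 64.5 to 72.9 with BPS. Cspg4 made up most of that sum, with means of 39.1 CPM with DMSO and 43.5 CPM with BPS. The other 5 had positive log2 changes but did not pass (adjusted p of 0.358 to 0.937 by edgeR). Of 5 mesothelial markers 2 were tested and 1, Krt19, was higher, with a summed level of 9.06 to 11.03 CPM with DMSO and 10.99 to 12.9 with BPS, and Msln and Upk3b at 0. Krt19 made up most of that sum, and the other tested marker, Wt1, averaged 0.849 and 0.569 CPM (log2 change -0.59, edgeR adjusted p = 0.155). Macrophage markers summed to 10.8 to 17.2 CPM and 11.95 to 19.6 CPM with Csf1r at 0, endothelial markers to 18.2 to 24.3 and 17.7 to 23.8 CPM, Schwann cell markers to 7.33 to 8.27 and 5.83 to 9.18 CPM and epithelial markers to at most 0.435 and 0.451 CPM. The part of these cells in the values of the growth factor genes was not tested. In bulk RNA, more cells of a type and more RNA per cell cannot be told apart. The library codes in the labels place the DMSO libraries before the BPS libraries, so an effect of library order and the effect of BPS cannot be told apart.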

How the data were processed

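The authors deposited estimated counts for 107384 RefSeq transcripts in 10 libraries, made with kallisto 0.42.4 per the submitters' processing notes. The index, genome build and strand setting are not given in the sources used here. Per the labels' protocols, libraries came from a directional Illumina kit. Columns were matched to samples by library code and 0 were left over. Transcripts were assigned to genes by accession without version through RefSeq (GRCm38.p6), which placed 86714 transcripts and 93.1% of counts in 32899 genes, and the rest was left out. Counts were summed per gene and rounded, filtered with filterByExpr and scaled by TMM (factors 0.9854 to 1.0076). The 2 groups of 5 entered edgeR's quasi-likelihood test, two-sided and without covariates. The SE is the log2 fold change divided by the square root of F. Depth was 37920689 to 42717227 counts per library. Transcript and coding lengths came from GENCODE M21 transcripts paired with RefSeq accessions.

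The members, lists and tests were chosen with earlier results of these data known. The naming rule gave the members with an adjusted p under 0.05 in full, filled up to 8 by smallest p, and named up to 5 called genes per list, the receptors of the ligands (except an item not reported here) and 7 response genes. The code was tested on simulated counts. Alternatives were other scalings, filters and tests, a replicate block, exact version matching and leaving out each library. The labels state no pairing of libraries by replicate number. Tools were edgeR 4.0.16, DESeq2 1.42.0 and limma 3.58.1 in R 4.3.3, and Python 3.11.15 with matplotlib 3.10.9.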

Additional observations from a re-analysis of the deposited data

Results flagged for a closer look

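Dixon's test for a single extreme value picked out 1 library in 3 of 66 groups of 5 values, where chance picks one in about 5% of groups. Fgf2 was low in DMSO replicate 3, at 14.5 CPM (571 counts) against 16.5 to 17.0 CPM in the other DMSO libraries. Fgfr2 stood at 1.13 CPM (43 counts) in DMSO replicate 4 against 0 to 0.223 CPM in the others. Fgfr3 was at 0 CPM (0 counts) in that same library against 0.866 to 0.963 CPM in the others. The cause of these values was not tested.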

How the results depend on the processing

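The 4 called members changed direction under none of the alternatives in which they were tested. Pdgfc was called in all 17 of these and Pdgfa in 16. With exact version matching Pdgfc, Pdgfa and Nrg1 were not tested, and Bdnf was tested and called. The number of called members, 4, was 2 without a filter and 1 with the replicate block, and 2 to 4 when single libraries were left out. It was 1 with exact version matching, where Bdnf was the only tested member of the 4. The number was 2 without DMSO replicates 2 or 5 or BPS replicates 1, 4 or 5. The 711 called genes became 371 with the replicate block and 327 with exact version matching, and 449 to 773 with a single library omitted (449 without DMSO replicate 2, and 462, 465 and 462 without BPS replicates 2, 3 and 4). The 7 called list genes became 3 with the block, 2 with exact version matching and 3 to 6 with a single library omitted (3 or 4 without DMSO replicates 1, 2 or 4 or BPS replicates 2, 3 or 4), and were 10 by DESeq2. Member transcripts went from 0 to 2 calls with DESeq2, and stayed at 0 when any library was left out. Under the block Pdgfa, Nrg1 and Bdnf lost their calls (adjusted p 0.076, 0.104 and 0.118). Deviations of libraries with the same replicate number correlated at 0.076, -0.026, -0.03, 0.064 and -0.043. These values show little shared deviation by number, and the labels state no pairing. Libraries of different numbers were not correlated for comparison. The cause of the changed calls was not tested. Exact matching tested fewer genes (11758) and placed fewer of the counts in genes (72.1% against 93.1%), and leaving out a library uses fewer samples.

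Of 491 values of single members under the alternatives, 436 kept direction and side of the threshold, 23 lost a call, 5 gained one and 27, all of members without a call, changed sign, with adjusted p of at least 0.641. With library size alone the log2 fold changes were -0.011 for Fgfr1, -0.001 for Egfr and -0.005 for Erbb2. Fgf1 turned to 0.015 with limma-voom and 0.006 with the block, and exact matching gave -0.025 for Fgf2, -0.158 for Met, -0.579 for Fgf1 and 0.682 for Ntrk2. Over the fits that left out 1 library, ranges that crossed 0 were -0.084 to 0.124 for Fgf1, -0.008 to 0.063 for Fgf2, -0.032 to 0.023 for Fgf7, -0.035 to 0.062 for Fgf18, -0.012 to 0.173 for Pdgfd, -0.036 to 0.017 for Vegfb, -0.027 to 0.046 for Fgfr1, -0.627 to 0.015 for Fgfr3 and -0.003 to 0.032 for Erbb2. Depth limits the genes with under 50 counts per library, Areg, Pdgfb, Fgfr3 and the 5 untested members.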

Other observations

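The genes most like 4 members over the 10 libraries were named by the largest Pearson correlation of log2 CPM, among tested genes with a mean of at least 1 CPM, as a description without a test. These were Aen for Ereg (r = 0.93), C430049B03Rik for Egfr (r = 0.899), Bri3 for Ntrk2 (r = 0.954) and Zfp948 for Areg (r = 0.904, on 5 to 19 Areg counts per library). Each is the highest of at least 12458 correlations, and the libraries share treatment and depth.

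Btc, which encodes the EGF receptor ligand betacellulin and was chosen after its values were seen, averaged 7.59 ± 0.754 CPM with DMSO and 6.29 ± 0.345 with BPS, and missed the threshold (adjusted p = 0.0625 by edgeR).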
